A study of Mus musculus with 6 samples.

Results

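Processed pseudogenes are copies of messenger RNAs that were reverse-transcribed and pasted back into the genome, so most of them lack the introns and the promoter of the gene they came from. Mouse genes with high expression in the germ line and the early embryo, ribosomal protein genes among them, are known as frequent sources. Many such copies are silent, others are transcribed from nearby promoters, and a recent copy can resemble its source so closely that short reads cannot tell them apart. The genes described here are the deposited genes that the authors' files annotate as processed pseudogenes, 34 of 2031 in all. They were chosen here by that annotation alone, but from genes that the authors had already selected as differing between the sample groups.

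The source of the RNA was the mouse embryonic stem cell line J1 (strain 129S4/SvJae), differentiated towards heart muscle by hanging drop, in which suspended droplets let the cells clump into embryoid bodies within 3 days. MF cells (3 libraries) were exposed to a static magnetic field inside their incubator, and NC cells (3 libraries) stayed in a conventional incubator. Libraries were made from poly-A RNA. All come from the same line and the series names them biological triplicates; field strength, exposure time and collection day are not stated in these sources. If a triplicate shared a culture, which the labels do not settle, the p-values below would measure technical spread alone.

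Library totals, recovered from the deposited values, were 19176383, 16801089 and 16276230 counts in MF replicates 1 to 3 and 15655958, 16110497 and 14929232 counts in NC replicates 1 to 3. Every deposited gene, each processed pseudogene included, had already been selected by the authors as differing between MF and NC, with a largest adjusted p of 0.0499 and a smallest absolute log2 fold change of 1.001 in the authors' deposited table. A call for a pseudogene is therefore a description, and what can be compared is its direction and size against the other deposited genes. The replicate 2 libraries stood apart. Over the deposited genes, the chi-square per degree of freedom between MF replicate 2 and NC replicates 1 and 3 was 71.1 and 64.2, smaller than the 163 and 118 between MF replicate 2 and MF replicates 1 and 3. NC replicate 2 was at 119 from NC replicate 3, while NC replicates 1 and 3 were at 20.5 from each other.

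The deposited members of several lists of cell type markers differed between the groups over the same libraries. Only markers that the authors had selected as differing were deposited, so these need not stand for the rest of their list. Most of the naive pluripotency list was not among the selected genes. Of 12 listed cardiomyocyte markers 9 were deposited and all 9 were higher in MF, with summed levels of 705, 131 and 359 FPKM (fragments per kilobase of gene length, scaled to library size) in MF replicates 1 to 3, against 53.2, 32.6 and 75.9 FPKM in NC replicates 1 to 3. All 6 fibroblast and mesenchyme markers were higher as well, but their sums overlapped, at 1064, 201 and 888 FPKM in MF against 241, 85.4 and 124 FPKM in NC. Of 5 listed endothelial markers 4 were deposited and 3 were higher, with sums of 39.7, 21.4 and 30.3 FPKM in MF against 12.4, 42.8 and 18.6 FPKM in NC, where NC replicate 2 was the highest library. The 3 deposited of 12 naive pluripotency markers (Dppa3, Prdm14 and Utf1) were lower, with summed levels of 16.2, 105 and 28.0 FPKM in MF against 200, 428 and 172 FPKM in NC. The 5 deposited of 8 germ cell markers were also lower, at 3.31, 15.5 and 7.29 FPKM summed in MF against 49.8, 169 and 39.9 FPKM in NC. The part of these cell types in the values of the pseudogenes was not tested. In such mixed samples, fewer cells of a type and less RNA per cell cannot be told apart.

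All 34 pseudogenes have the same coordinates in the files as in GENCODE release M21 of the mouse build mm10 (GRCm38), where 33 consist of 1 exon and Gm10769 of 3. They lie on 17 chromosomes, with 5 on chromosome 11 and 4 on chromosome 17, and are between 139 and 1688 bases long, with a median of 733 bases. The closest protein-coding transcript, found by alignment, is called the parent gene here. A parent was found for 33 of the 34, which have 32 different parents because Gm12138 and Gm6736 share Akr1b3. Identity to the parent was between 74.6% and 99.8% of aligned bases, with a median of 98.8%, and reached 95% over at least 90% of the pseudogene's length in 26 of 34 (76.5%). Among the 9909 other annotated processed pseudogenes of the release, 21.8% reached the same limits. An open reading frame covered at least 90% of the length in 15 of 34 (44.1%), against 15.3% of the others. These shares are a description, since the 34 are the pseudogenes that had enough counts and a difference to be selected by the authors.

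The stretches printed next show how little separates these pseudogenes from their parents, which bears on how reads can be assigned. Except for Gm6736 and Gm49195, described with their sequences, each is the window of 80 bases, inside the parent's coding sequence and without gaps, in which pseudogene and parent differ most. All are written 5′ to 3′ on the transcribed strand from the GENCODE M21 transcripts, with the differing bases in capitals. The first pairs belong to the pseudogenes with large falls whose parents act in pluripotent or germ cells: Tdgf1-ps1 (chr16:3730894-3730973, plus strand) with Tdgf1, Gm9788 (chr19:41459854-41459933, plus strand) with Dppa2, and Gm12463 (chr4:44752300-44752379, minus strand) with Aurkc.
Tdgf1-ps1: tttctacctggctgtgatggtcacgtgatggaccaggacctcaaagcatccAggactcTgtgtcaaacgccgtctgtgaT
Tdgf1: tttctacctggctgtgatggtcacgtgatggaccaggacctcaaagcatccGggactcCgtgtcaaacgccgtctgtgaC
Gm9788: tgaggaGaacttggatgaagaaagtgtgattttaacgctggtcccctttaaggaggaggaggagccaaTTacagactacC
Dppa2: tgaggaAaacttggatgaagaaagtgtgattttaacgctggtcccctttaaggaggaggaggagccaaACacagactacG
Gm12463: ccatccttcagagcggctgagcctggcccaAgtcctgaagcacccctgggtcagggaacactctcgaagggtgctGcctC
Aurkc: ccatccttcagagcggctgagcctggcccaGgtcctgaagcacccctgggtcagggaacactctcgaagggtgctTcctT
In these windows the pairs differ at 3, 4 and 3 positions. A read of 50 bases from the first part of the Tdgf1-ps1 window is therefore identical in the parent.

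The pair of aldose reductase copies is shown because both have the same parent. In the window where Gm12138 (chr11:40673647-40673726, minus strand) differs from Akr1b3 at 3 positions, the matching stretch of Gm6736 (chr12:13455761-13455840, minus strand) is identical to Akr1b3, from which Gm6736 differs at 5 positions elsewhere.
Gm12138: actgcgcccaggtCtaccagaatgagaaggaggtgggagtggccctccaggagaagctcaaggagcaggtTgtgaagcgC
Gm6736: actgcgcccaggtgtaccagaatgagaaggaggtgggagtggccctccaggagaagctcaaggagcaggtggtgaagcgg
Akr1b3: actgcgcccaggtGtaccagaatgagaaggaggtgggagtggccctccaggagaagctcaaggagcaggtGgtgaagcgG
Gm10039 (chr11:100361742-100361821, minus strand) is shown as an abundant copy that is almost its parent, Atp5g1, from which it differs at 1 base over its whole length of 411 bases.
Gm10039: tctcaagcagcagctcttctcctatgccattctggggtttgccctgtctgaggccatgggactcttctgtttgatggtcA
Atp5g1: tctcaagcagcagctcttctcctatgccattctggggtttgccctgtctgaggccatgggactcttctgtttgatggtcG
At the other end are Gm16574 (chr17:12818822-12818901, plus strand), 1 of the 2 pseudogenes that were higher in MF, which differs from its parent Rangap1 at 11 positions of the window, and Gm49195 (chr15:34531560-34531698, plus strand), printed whole, with an identity of 84.9% to Rpl12 and no stretch of 50 bases in common with any other annotated transcript.
Gm16574: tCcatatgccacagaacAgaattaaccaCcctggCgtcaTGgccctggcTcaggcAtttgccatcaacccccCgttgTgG
Rangap1: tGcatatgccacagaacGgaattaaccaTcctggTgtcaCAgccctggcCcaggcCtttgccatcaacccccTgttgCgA
Gm49195: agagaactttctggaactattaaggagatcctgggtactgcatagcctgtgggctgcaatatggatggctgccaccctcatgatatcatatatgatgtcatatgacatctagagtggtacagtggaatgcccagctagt
Over all 34, the share of stretches of 50 bases that occur in no other annotated transcript had a median of 30.2% and lay between 0% in Gm8210, the Rpl29 copy, and 100% in Gm49195. For stretches of 100 bases the median was 62.0%. For 27 of the 34 there was at least 1 other gene as close as 95% over 90% of the length. The counting settings for reads that match several genes are not stated in these sources, so levels of a pseudogene and of its near-identical copies are uncertain, and the part of shared reads in the values was not tested.

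**Figure D1:**
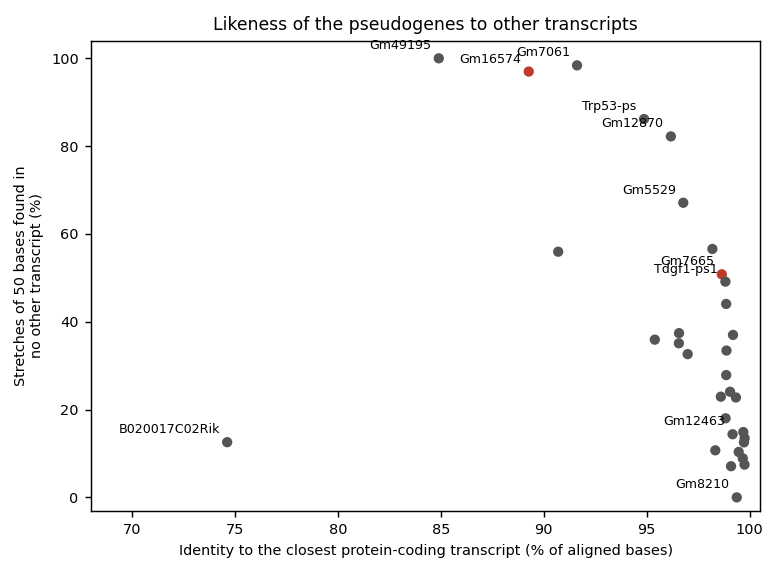
Each point is 1 of the 33 processed pseudogenes with a parent; the x axis is its identity to the closest protein-coding transcript (percent of aligned bases) and the y axis the percent of its stretches of 50 bases found in no other annotated transcript. Most points lie at high identity with few stretches of their own, and the 2 pseudogenes that were higher in MF, in red, are Gm16574 at 89.3% identity and Gm7665 at 98.7%.

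The deposited processed pseudogenes were lower in MF almost throughout. In the authors' deposited table, 32 were lower and 2 higher, so 94.1% were lower, against 36.8% of all 2031 deposited genes and 32.8% of the 1811 protein-coding ones. This direction was not theirs alone. All 6 transcribed processed, all 7 unprocessed and 5 of 7 transcribed unprocessed pseudogenes were lower as well, but only 1 of 4 polymorphic ones. The summed counts of the 34 processed pseudogenes took 0.0269%, 0.0374% and 0.0224% of the library totals in MF replicates 1 to 3, against 0.0673%, 0.0635% and 0.0603% in NC replicates 1 to 3. The groups did not overlap, and the share averaged 0.0289% ± 0.00774 in MF and 0.0637% ± 0.00349 in NC (SD, n = 3 each), a ratio of NC over MF of 2.20. The 5 pseudogenes with the most counts (Gm10020, Gm9118, Gm10039, Gm4617 and Gm8210) held 73.8% of these counts in MF and 71.2% in NC, and all 5 fell.

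**Figure D2:**
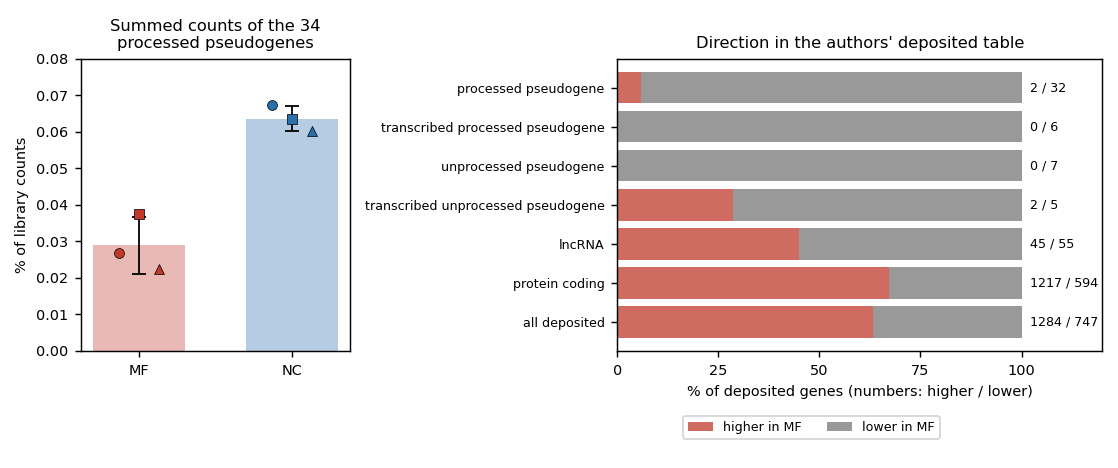
The left panel plots the summed counts of the 34 processed pseudogenes as percent of the library total, with a point per library and bars for the mean and SD of MF and NC (n = 3 each). All MF points lie below all NC points, which the authors' selection of these genes largely fixed in advance. The right panel gives, for classes of deposited genes, the percent higher and lower in MF in the authors' deposited table, with 2 higher and 32 lower among processed pseudogenes and 1217 higher and 594 lower among protein-coding genes.

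Counts were tested with edgeR's quasi-likelihood test over the 1651 named deposited genes that averaged 0.5 FPKM or more, with Benjamini-Hochberg adjustment over those genes at 0.05. Of the 34 pseudogenes, 32 passed that filter, 2 rose, 26 fell and 4 did not pass the test. Among all tested genes 97.5% were called, 62.1% as higher and 35.4% as lower in MF. A call is thus no mark of the pseudogenes, and their direction is read against the 35.4%, since 81.2% of the tested pseudogenes fell. Of the 32, 4 (Gm12209, Gm49195, B020017C02Rik and Gm16574) passed the filter only through the group where they are high, so they had to differ and their calls support nothing. Among the other 28, 1 rose and 23 fell, with a median log2 fold change of −1.33. Over all 32 the median log2 fold change, MF over NC, was −1.34, against 1.22 over all tested genes and 1.26 over the protein-coding ones. Within the genes that were lower in MF the pseudogenes did not stand out by size, with a median of −1.36, against −1.70 for the lower protein-coding genes. In FPKM the MF and NC libraries did not overlap for 32 of the 34, 30 of them lower, while over all tested genes this held for 92.5%, with 58.4% higher and 34.2% lower.

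These calls depend on single libraries. Without MF replicate 3, edgeR called 0 of the 32 (5 had an unadjusted p under 0.05) and, over all tested genes, 12 as higher and 0 as lower. Without MF replicate 1 it called 1 pseudogene higher and 2 lower, without NC replicate 1 it called 0 and 3, without NC replicate 2 it called 0 and 7, and without NC replicate 3 again 0 and 7. Leaving out MF replicate 2 gave 2 and 29, and leaving out both replicate 2 libraries gave 2 and 30. In each of these fits the fold change of 30 of the 32 was negative. When the adjustment ran over 19069 tests, the number that the authors' adjusted p-values imply, edgeR called 0 pseudogenes, while 29 had an unadjusted p under 0.05. Scaling by TMM lowered the median log2 fold change of all tested genes by 0.70 and the median-of-ratios scaling by 1.05, and the calls over all genes became 291 higher and 589 lower by TMM and 158 higher and 507 lower by median-of-ratios factors, both in edgeR, and 263 higher and 599 lower by DESeq2 with its own test, in place of 1026 and 584. The pseudogenes under TMM were 0 higher and 29 lower. TMM, median-of-ratios and DESeq2 factors were estimated from the tested genes alone, all selected as differing, while they assume that most genes do not change. They therefore centre the selected genes, and a call lost under them does not decide whether a gene rose.

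Levels of the 34 spanned several orders of magnitude. Mean levels lay between 0.0333 and 131 FPKM in MF, with a median of 3.98, and between 0.115 and 278 FPKM in NC, with a median of 10.7. The mean count per library had a median of 82.6 and was under 10 for 4 of them, whose values rest on few reads. Among the 32 tested, 6 were lower by at least 4-fold and 24 by between 2- and 4-fold. The authors' selection, with a smallest absolute log2 fold change of 1.001, left little room for smaller falls. Of the 6, Gm12209, Gm49195 and B020017C02Rik passed the filter only through NC. The untested Gm7061 and Gm10769 were also lower by more than 4-fold, with log2 fold changes of −3.77 and −2.88 in the authors' deposited table.

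**Figure D3:**
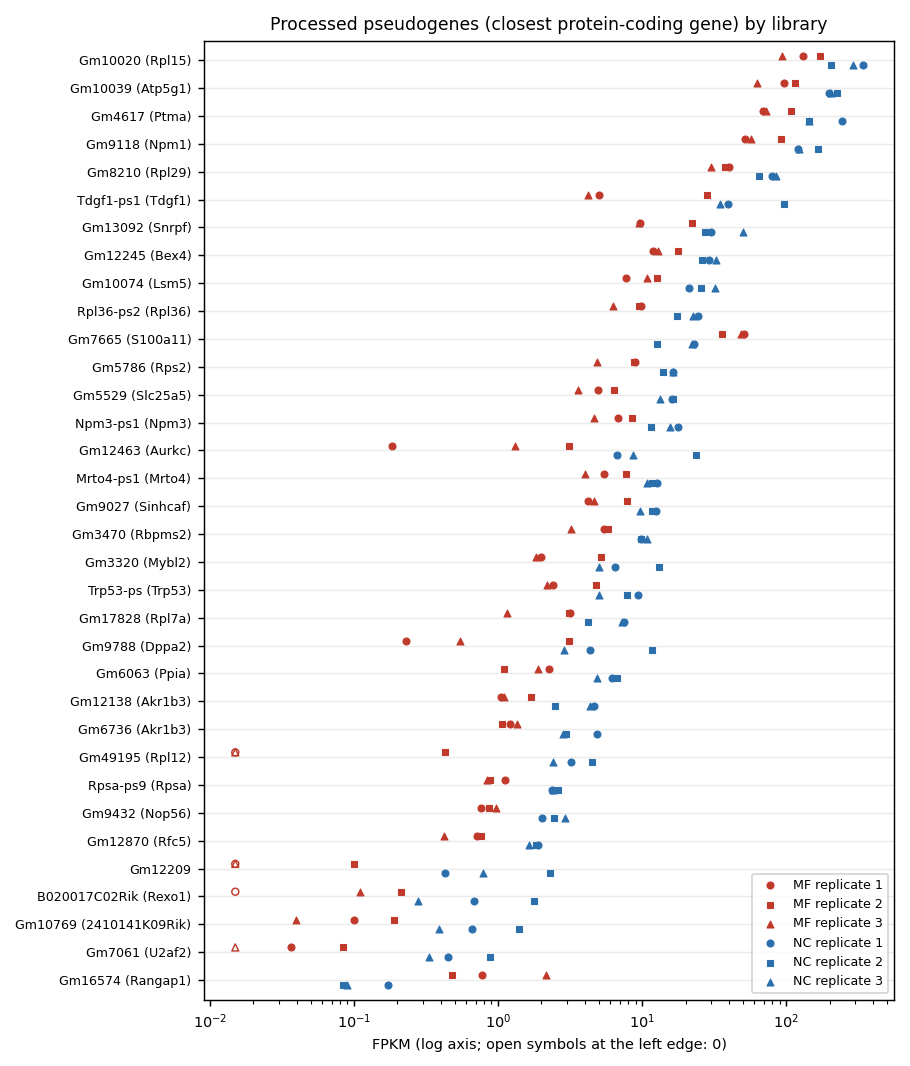
Levels of all 34 processed pseudogenes in FPKM on a log axis, with a symbol per library, MF in red above NC in blue for each, and open symbols at the left edge for libraries listed at 0; the parent gene stands in parentheses. MF libraries lie left of NC libraries for all but 4: Gm7665 and Gm16574, which lie to the right, and Gm9788 and Gm3320, whose groups overlap.

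The copies of genes that act in pluripotent and germ cells had the largest median fall among the parent groups. All 3 fell, with a median log2 fold change of −2.29. Calls in this and the following parent groups stand against 35.4% of all tested genes called lower and 62.1% called higher. The parent groups differ from those first planned, where neither Tdgf1 nor Aurkc was listed for pluripotent and germ cells, so this ranking is a description. Tdgf1-ps1 derives from Tdgf1, which encodes the Nodal co-receptor Cripto. It had 4.98, 28.0 and 4.19 FPKM in MF replicates 1 to 3, against 39.6, 96.9 and 34.6 FPKM in NC replicates 1 to 3. The groups did not overlap, but replicate 2 was by far the highest library in each. The means were 12.4 ± 13.5 FPKM in MF and 57.0 ± 34.6 FPKM in NC (SD, n = 3 each), with a log2 fold change of −2.20 (SE 0.77, adjusted p = 0.0295 by edgeR). Its parent Tdgf1 is not among the deposited genes and was not analysed here.

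Gm12463 (mm10 chromosome 4, 44752277 to 44753125) is a copy of Aurkc, the Aurora kinase of meiotic cells. Its levels were 0.184, 3.08 and 1.30 FPKM in MF, against 6.70, 23.7 and 8.68 FPKM in NC. No MF library reached the lowest NC library, and the log2 fold change was −3.09 (SE 0.90, edgeR adjusted p = 0.0234). Gm9788 is a copy of Dppa2, a chromatin-binding factor of pluripotent cells, and had 0.230, 3.09 and 0.543 FPKM in MF, against 4.37, 11.6 and 2.88 FPKM in NC. Here MF replicate 2 lay above NC replicate 3, so the groups overlapped, and the log2 fold change was −2.29 (SE 0.95, edgeR adjusted p = 0.0404).

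Copies of ribosomal protein genes were the largest group, with 7 members and a median log2 fold change of −1.32. Of the 7, 6 fell and Gm17828 did not pass, while 35.4% of all tested genes were called lower. The 6 include Gm49195, whose call supports nothing, as it passed the filter only through NC. The most abundant pseudogene of all was Gm10020 (mm10 chromosome 15, 52477617 to 52478228), a copy of Rpl15 of the large subunit. It had 131, 170 and 93.0 FPKM in MF, against 341, 204 and 289 FPKM in NC, and fell by 1.08 on the log2 scale (SE 0.40, edgeR adjusted p = 0.0321). All NC libraries were above all MF libraries, with NC replicate 2 the lowest of NC and MF replicate 2 the highest of MF. Gm8210, the Rpl29 copy without a 50-base stretch of its own, had 39.9, 37.3 and 30.3 FPKM in MF, against 79.9, 64.6 and 85.4 FPKM in NC (log2 fold change −1.10, SE 0.37, edgeR adjusted p = 0.0274). It has 27 near-identical genes, and no stretch of 100 bases is its own either.

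Rpl36-ps2, a copy of the large-subunit gene Rpl36, had 9.89, 9.57 and 6.32 FPKM in MF, against 24.2, 17.6 and 22.6 FPKM in NC (log2 fold change −1.32). Rpsa-ps9, a copy of the small-subunit gene Rpsa, had 1.12, 0.874 and 0.833 FPKM in MF, against 2.38, 2.60 and 2.42 FPKM in NC (log2 fold change −1.38). Both kept a narrow spread within MF and NC, with no overlap. Gm5786, from the small-subunit gene Rps2, averaged 7.55 ± 2.31 FPKM in MF and 15.5 ± 1.46 FPKM in NC (SD, n = 3 each) and fell as well. Gm17828, from Rpl7a, had 3.13, 3.13 and 1.15 FPKM in MF, against 7.43, 4.20 and 7.29 FPKM in NC, with an edgeR adjusted p of 0.0506 that became 0.0474 with the replicate number as a block. No label pairs the libraries, so here and below a value with the block does not turn a pseudogene that did not pass into a call.

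The short Gm49195, the remnant of an Rpl12 copy, was measured by 0, 1 and 0 counts in MF and 7, 10 and 5 counts in NC. The ratio of NC over MF, scaled by library totals, was 24.6, with an exact 95% counting interval of 3.98 to 1016 that covers counting error alone.

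The nucleolus and ribosome assembly group has 4 members, of which 3 fell, with a median log2 fold change of −1.09. Gm9118 is a copy of Npm1, the abundant nucleolar chaperone nucleophosmin. It had 51.5, 92.3 and 57.3 FPKM in MF, against 120, 165 and 122 FPKM in NC, and fell by 1.02 on the log2 scale (SE 0.39, edgeR adjusted p = 0.0338). Replicate 2 was again the highest in each group. Npm3-ps1, from a relative of Npm1, had 6.81, 8.57 and 4.65 FPKM in MF, against 17.7, 11.5 and 15.5 FPKM in NC. Gm9432, from Nop56, a core protein of the box C/D small nucleolar RNA particles, had 0.756, 0.863 and 0.971 FPKM in MF, against 2.02, 2.45 and 2.91 FPKM in NC. Both fell, with log2 fold changes of −1.15 and −1.50. Mrto4-ps1, from a gene of ribosome maturation, had 5.42, 7.76 and 4.01 FPKM in MF, against 12.7, 11.6 and 10.8 FPKM in NC, with an edgeR adjusted p of 0.0607 that became 0.0341 with the replicate block.

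Copies of RNA-processing genes numbered 5, of which 4 were tested and 3 fell. The 3 include B020017C02Rik, which passed the filter only through NC. Gm13092, from Snrpf, which encodes the SmF core protein of spliceosomal particles, had 9.63, 22.2 and 9.45 FPKM in MF, against 30.2, 27.2 and 49.7 FPKM in NC (log2 fold change −1.37, SE 0.55, edgeR adjusted p = 0.0375). MF replicate 2 came close to the lowest NC library without reaching it. Gm10074, from Lsm5 of the Sm-like ring, averaged 10.4 ± 2.49 FPKM in MF and 26.3 ± 5.39 FPKM in NC (SD, n = 3 each) and fell. Gm3470, from the RNA-binding gene Rbpms2, had 5.46, 5.81 and 3.22 FPKM in MF, against 9.89, 9.75 and 10.8 FPKM in NC, and did not pass (edgeR adjusted p = 0.0757, and 0.0557 with the replicate block).

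B020017C02Rik, whose best match is 74.6% identical to Rexo1 over 51.8% of its length, had 0, 6 and 3 counts in MF, against 18, 48 and 7 counts in NC, with a log2 fold change of −3.06 (SE 1.12, edgeR adjusted p = 0.0312) that carries the limit of the filter given above. Gm7061, a diverged copy of the splicing factor gene U2af2, was below the filter, with 1, 2 and 0 counts in MF and 10, 20 and 7 in NC. For it the ratio of NC over MF was 13.8, with an exact 95% counting interval of 4.37 to 70.0 that covers counting error alone.

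Both copies of mitochondrial inner membrane genes fell. Gm10039, from Atp5g1, which encodes subunit c of ATP synthase, had 96.9, 114 and 62.3 FPKM in MF, against 198, 225 and 204 FPKM in NC. The groups were far apart against their spread, at 91.1 ± 26.4 and 209 ± 14.0 FPKM (MF and NC, SD, n = 3 each), with a log2 fold change of −1.20 (SE 0.38, edgeR adjusted p = 0.0255). Gm5529, from Slc25a5, an ADP/ATP carrier, had 4.92, 6.41 and 3.59 FPKM in MF, against 16.1, 16.4 and 13.3 FPKM in NC. Its log2 fold change of −1.62 (SE 0.46) had the smallest adjusted p of the 32, 0.0224 by edgeR.

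The 3 copies of genes for DNA replication, cell cycle and p53 all fell, with log2 fold changes between −1.48 and −1.24. Gm12870, from Rfc5 of the clamp loader, averaged 0.634 ± 0.184 FPKM in MF and 1.79 ± 0.125 FPKM in NC (SD, n = 3 each). Gm3320, from the cell cycle transcription factor gene Mybl2, had 1.97, 5.20 and 1.85 FPKM in MF, against 6.51, 13.1 and 5.00 FPKM in NC, so that MF replicate 2 lay just above NC replicate 3. Trp53-ps, from the p53 gene, had 2.42, 4.81 and 2.17 FPKM in MF, against 9.34, 7.80 and 5.02 FPKM in NC. It is among the better separated copies, with 86.2% of its 50-base stretches found in no other transcript, and it fell by 1.24 on the log2 scale (SE 0.54, edgeR adjusted p = 0.0466).

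Gm12138 and Gm6736, the 2 aldose reductase copies, both fell. Gm12138 had 1.04, 1.69 and 1.10 FPKM in MF, against 4.63, 2.48 and 4.37 FPKM in NC (log2 fold change −1.58, SE 0.60, edgeR adjusted p = 0.0326). Gm6736 had 1.21, 1.07 and 1.36 FPKM in MF, against 4.85, 2.95 and 2.83 FPKM in NC (log2 fold change −1.54, SE 0.58, edgeR adjusted p = 0.0329). Neither had overlapping groups.

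Of the 7 copies of other genes, 6 were tested, 2 rose and 3 fell. The 2 include Gm16574, which passed the filter only through MF. Gm4617, from Ptma, which encodes the acidic nuclear protein prothymosin alpha, had 69.5, 108 and 71.8 FPKM in MF, against 245, 144 and 144 FPKM in NC (log2 fold change −1.10, SE 0.41, edgeR adjusted p = 0.0315). Gm6063, from the cyclophilin gene Ppia, had 2.26, 1.10 and 1.90 FPKM in MF, against 6.19, 6.66 and 4.83 FPKM in NC (log2 fold change −1.74, SE 0.62, edgeR adjusted p = 0.0301). In both, every NC library was above every MF library. Gm12245, from the X-linked gene Bex4, averaged 14.2 ± 3.15 FPKM in MF and 29.2 ± 3.37 FPKM in NC (SD, n = 3 each) and fell. Gm9027, from Sinhcaf, a subunit of a histone deacetylase complex, averaged 5.55 ± 1.99 FPKM in MF and 11.3 ± 1.47 FPKM in NC, with an edgeR adjusted p of 0.0694 and of 0.0425 with the replicate block. Gm10769, from 2410141K09Rik, was below the filter, at 0.100, 0.191 and 0.0394 FPKM in MF against 0.655, 1.39 and 0.386 FPKM in NC. It has 3 exons and lies on chromosome 13, as its parent does, and whether it arose by reverse transcription was not tested.

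Gm12209 has no protein-coding match and 3 near-identical non-coding copies. It had 0, 1 and 0 counts in MF and 4, 22 and 7 counts in NC. The ratio of NC over MF was 36.9, with an exact 95% counting interval of 6.18 to 1502 that covers counting error alone.

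The 6 tested pseudogenes that were lower by at least 4-fold had a like order of libraries. All 6 (Gm12209, Gm49195, Gm12463, B020017C02Rik, Gm9788 and Tdgf1-ps1) were highest in NC replicate 2 and, within MF, in replicate 2, as were the untested Gm7061 and Gm10769. For Gm12209 and Gm49195 the order within MF rests on a single count. Set against each pseudogene's NC mean, on the scale of log2(CPM + 0.5), where CPM is the count scaled to the library total, their median was −2.37, −0.92 and −1.90 in MF replicates 1 to 3, against −0.31, 0.94 and −0.45 in NC replicates 1 to 3. For the 24 tested with smaller falls it was −1.11, −0.81 and −1.37 in MF, against 0.07, −0.03 and 0.03 in NC, and 6 of the 24 were highest in NC replicate 2. Within MF, 16 of the 24 were highest in replicate 2, so that order was common to most. The summed naive pluripotency and germ cell markers given above were also highest in replicate 2 of each group, and their part in this pattern was not tested. As the 6 were set apart by their fall on these same libraries, the pattern is a description. Among them, Gm12209, Gm49195 and B020017C02Rik also passed the filter only through NC, where they are high.

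**Figure D4:**
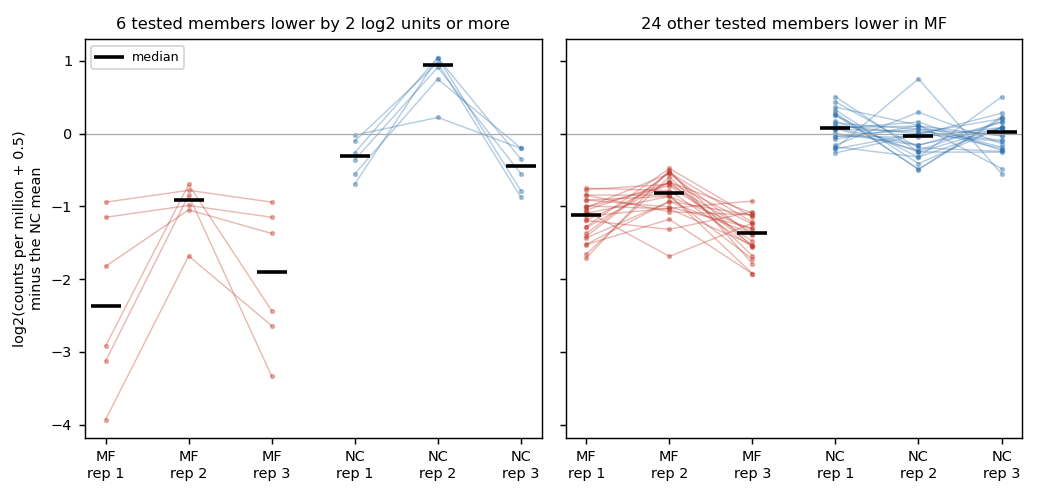
Each thin line joins the libraries of 1 tested pseudogene within a group, MF in red to the left of NC in blue, as log2(CPM + 0.5) minus its NC mean; black bars are medians. The 6 tested ones lower by at least 4-fold, on the left, peak in replicate 2 of both groups (medians −0.92 in MF and 0.94 in NC), while the other 24, on the right, are level over NC and differ less among the MF libraries.

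Both pseudogenes that rose lost their call under scalings estimated from the selected genes alone, which cannot decide whether a gene rose. Gm7665, on chromosome 18, is a copy of S100a11, which encodes a calcium-binding S100 protein. It had 50.9, 35.9 and 48.2 FPKM in MF, against 22.8, 12.7 and 22.3 FPKM in NC, and every MF library was above every NC library. The log2 fold change was 1.22 (SE 0.46, edgeR adjusted p = 0.0326), but it was 0.53 under TMM (adjusted p = 0.210) and 0.18 by DESeq2 (adjusted p = 0.616), which places it near the middle of the selected genes. It also lost its call without any 1 of MF replicates 1 and 3 and of the 3 NC libraries, with adjusted p between 0.0668 and 0.109. S100a11 was not analysed here.

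Gm16574 (mm10 chromosome 17, 12818793 to 12819537) matches Rangap1, the activator of the Ran GTPase, over 47.5% of its length. It had 11, 6 and 26 counts in MF, against 2, 1 and 1 counts in NC, or 0.770, 0.479 and 2.14 FPKM in MF against 0.171, 0.0833 and 0.0899 FPKM in NC. All MF libraries were higher. The ratio of MF over NC was 9.61, with an exact 95% counting interval of 3.49 to 36.8 that covers counting error alone. The log2 fold change was 3.18 (SE 1.02, edgeR adjusted p = 0.0258). It passed the filter only through MF, where it is high, so this p supports nothing. DESeq2 gave 2.17 with an adjusted p of 0.130, and edgeR without MF replicate 3, which holds most of its counts, gave 2.35 with an adjusted p of 0.106. Without 1 NC library its adjusted p was between 0.0558 and 0.0604.

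Gm16574 is also the pseudogene with a deposited host gene. It lies on the same strand in an intron of Airn, the imprinted non-coding RNA that silences Igf2r on the paternal chromosome in mouse. Airn had 2.17, 0.978 and 2.96 FPKM in MF, against 0.456, 0.121 and 0.927 FPKM in NC, and rose by 2.02 on the log2 scale (SE 0.75, edgeR adjusted p = 0.0316). MF replicate 2 was close to NC replicate 3, and the order of the MF libraries was that of Gm16574. Igf2r, which overlaps Airn on the opposite strand, had 106, 24.3 and 76.8 FPKM in MF, against between 14.2 and 20.8 FPKM in NC (log2 fold change 1.97, SE 0.55, edgeR adjusted p = 0.0218). Whether reads of Airn and of the pseudogene can be told apart is not stated in these sources. Of the other pseudogenes, 8 lie inside another annotated gene, 7 of them on the opposite strand, and no deposited gene is nearer than 42432 bases to any pseudogene outside Airn.

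Parents of 12 pseudogenes were themselves deposited, 11 different genes, and all 12 pairs were lower in MF on both sides. Every parent was past the threshold, which is no result, since the authors had selected each on the same contrast. That selection also favours like sizes of change within a pair. Among deposited protein-coding genes 32.8% were lower. Within these 12 selected pairs, pseudogene and parent changed by like amounts. The log2 ratio of the pseudogene's count to the parent's differed between MF and NC by at most 0.45 in size. The median size was 0.21, and the ratio was lower in MF in 7 of the 12. Aurkc itself had 0.205, 2.97 and 0.645 FPKM in MF, against 7.80, 25.5 and 6.55 FPKM in NC (log2 fold change −3.38, SE 0.94, edgeR adjusted p = 0.0216). The count of Gm12463 came to 73.5% of that of Aurkc in MF and 57.8% in NC, on average over the libraries, and their log2 ratio differed by 0.31 (SE 0.39). This pair has the largest share of the 12, and 14.4% of the 50-base stretches of Gm12463 are its own.

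Akr1b3 had 10.6, 16.0 and 8.71 FPKM in MF, against 47.0, 25.3 and 37.8 FPKM in NC (log2 fold change −1.64, SE 0.43, edgeR adjusted p = 0.0191). The counts of its copies were a small part of its own, 1.25% in MF and 1.18% in NC for Gm12138, and 1.27% in MF and 1.11% in NC for Gm6736. These shares are of counts, which are not scaled to gene length. In FPKM the means in MF and NC were 1.28 and 3.83 for Gm12138 and 1.21 and 3.54 for Gm6736, against 11.8 and 36.7 for Akr1b3. Akr1b3 had fewer FPKM in NC replicate 2 than in the other NC libraries, and so did Gm12138, whereas Gm6736 was lowest in NC replicate 3.

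Slc25a5, at 129, 214 and 120 FPKM in MF against 330, 394 and 323 FPKM in NC (log2 fold change −1.18), fell by less than its copy Gm5529. Gm5529 had 2.06%, 1.62% and 1.62% of the Slc25a5 count in MF, against 2.65%, 2.25% and 2.23% in NC. It is the pair of the 12 whose ratios did not overlap between MF and NC, with a log2 difference of −0.42 (SE 0.14). The two-sided exact permutation test gave p = 0.1, the smallest that 3 against 3 libraries allow, and 0.873 after adjustment over the 12 pairs, which is the smallest adjusted value of the family. Of the 50-base stretches of Gm5529, 67.1% occur in no other transcript.

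For the remaining pairs the ratio groups overlapped. Trp53 averaged 40.4 ± 8.62 FPKM in MF and 88.8 ± 18.4 FPKM in NC (SD, n = 3 each), and its copy held 2.16% of its count in MF and 2.36% in NC. Npm3 averaged 37.6 ± 11.5 FPKM in MF and 77.8 ± 4.65 FPKM in NC, with 7.91% and 8.47% of its count in Npm3-ps1 (MF and NC). Snrpf averaged 29.3 ± 10.8 FPKM in MF and 64.3 ± 14.9 FPKM in NC, with 13.9% and 16.6% in Gm13092. In counts, which are not scaled to gene length, the copies of these genes stood well below their parents. In FPKM the means in MF and NC were 3.14 and 7.39 for Trp53-ps, 6.68 and 14.9 for Npm3-ps1, and 13.8 and 35.7 for Gm13092. Mybl2, Rfc5, Rpl7a and Rbpms2 had log2 fold changes of −1.53, −1.15, −1.02 and −1.12, against −1.45, −1.48, −1.35 and −1.07 for Gm3320, Gm12870, Gm17828 and Gm3470. 2410141K09Rik, the parent of the untested Gm10769, had a log2 fold change of −2.14 (SE 0.85, edgeR adjusted p = 0.0361). The parents of 21 pseudogenes were not among the deposited genes and were not analysed here. Only genes that the authors had selected as differing were deposited, so these parents were not among the selected genes. The 12 pairs therefore do not show how pseudogenes and parents compare in general.

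**Figure D5:**
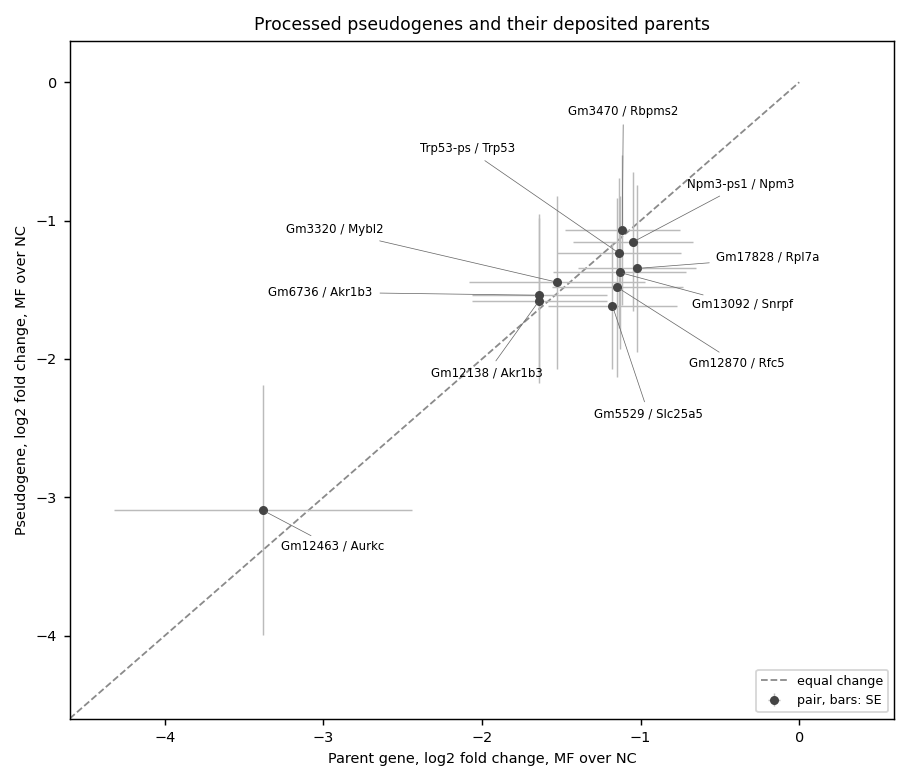
Log2 fold change, MF over NC, of 11 processed pseudogenes (y axis) against that of their parent genes (x axis) from edgeR, with bars for the SE and a dashed line for equal change. All points lie below 0 on both axes, with Gm12463 and Aurkc at −3.09 and −3.38 and the other 10 pairs between −1.64 and −1.02 on both.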

How the data were processed

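Per the file headers, the deposited files give a count, a normalized signal and FPKM for each gene. They also give, for the authors' comparison, a log2 fold change with raw and adjusted p-value. The submitters' processing notes name HISAT2 2.0.5, featureCounts and mm10, without strand or multi-match settings. Library totals were recovered from the deposited count, FPKM and length. The 48 unnamed rows (0.0134% to 0.0390% of library totals) stayed out of tests. The members and lists were chosen with earlier results of these data known.

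Counts were tested with edgeR 4.0.16 (R 4.3.3), quasi-likelihood, group as the only term, two-sided, adjusted by Benjamini-Hochberg over the 1651 tested genes, all selected by the authors on the same contrast, so errors over the genome are not controlled. The common biological coefficient of variation was 0.506. Alternatives used limma 3.58.1, DESeq2 1.42.0, other scalings and filters, and left-out libraries; keeping unnamed rows was added after the data were seen. The pipeline was tested on simulated data. No libraries agreed within sampling noise (chi-square per degree of freedom 20.5 to 632).

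Deviations from group means correlated at 0.38, 0.55 and 0.37 between same-numbered libraries 1, 2 and 3, which were taken as pairs for the replicate block. This comes from the values, not from a label, and MF replicate 1 correlated more with NC replicate 3 (0.56). Parents were found with BLAST 2.17.0 against GENCODE M21 transcripts. Described in full were the largest changes past 0.05 without overlap and with 2 FPKM or more, copies named after a parent, the 5 with the most counts and up to 10 with a deposited parent or host; the remaining members were named after their values were seen.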

Additional observations from a re-analysis of the deposited data

How the results depend on the processing

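In every setting run, 30 of the 32 tested pseudogenes (32 of 34 without the filter, 29 of 30 with at least 60 counts, 24 of 25 with at least 2 FPKM) had a negative log2 fold change, and no named pseudogene reversed. The count that rose was 0 under TMM, median-of-ratios scaling, DESeq2 and the adjustment over 19069 tests, in place of 2. It was 1 with at least 60 counts or at least 2 FPKM. The TMM, median-of-ratios and DESeq2 factors carry the limit given above, as they came from the selected genes alone. The count that fell was 16 with at least 2 FPKM and 0 over 19069 tests (29 with an unadjusted p under 0.05), in place of 26, and 25 to 30 in the other settings with all libraries. Leaving out 1 library gave between 0 and 2 that rose and between 0 and 29 that fell. The median log2 fold change was −1.99 under TMM, −2.30 under median-of-ratios scaling, −2.31 by DESeq2 and −1.06 by limma on log2(FPKM + 1). With the replicate block, 2 rose and 29 fell; apart from Gm17828, Mrto4-ps1 and Gm9027 it changed no call of the 32. Over the counts of the deposited genes alone, the share in pseudogenes was 0.369% in MF and 1.10% in NC. Matching parents by symbol gave 2 deposited parents and matching by alignment 12. The causes of these changes were not tested. Depth limits 4 pseudogenes with a mean under 10 counts.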

Other observations

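Some other pseudogene classes in the authors' deposited table were mostly lower, as the processed pseudogenes were, and others mostly higher. All 6 transcribed processed pseudogenes and all 7 unprocessed pseudogenes were listed as lower, as were 5 of 7 transcribed unprocessed pseudogenes, against 55 of 100 long non-coding RNAs and 594 of 1811 protein-coding genes. In contrast, 3 of 4 polymorphic pseudogenes and the 1 gene annotated as pseudogene alone were listed as higher. By edgeR the tested unprocessed pseudogenes had a median log2 fold change of −4.52 (7 genes) and the transcribed processed ones of −1.94 (6 genes), against −1.34 for the processed pseudogenes. These classes are small and their genes were selected on the same contrast, so the values are a description.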
